A study of Mus musculus with 6 samples.

Results

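The 9 genes described here encode the enzymes that write and remove DNA methylation and the catalytic subunits of Polycomb repressive complex 2 (PRC2): Dnmt1, Uhrf1, Dnmt3a, Dnmt3b, Tet1, Tet2, Tet3, Ezh1 and Ezh2. They were chosen by name, as 9 of 24077 genes in a single-cell count table of the mouse uterus and 9 of 30828 genes in each of 4 spatial count tables. Their levels were read by cell type, by epithelial cluster, by library and by tissue section.

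DNA methylation on CpG sites is copied after replication by Dnmt1, which Uhrf1 brings to the half-methylated daughter strands, so both genes are usually transcribed as cells enter S phase. Dnmt3a and Dnmt3b add methyl groups to sites that had none, and the Tet enzymes oxidise methylcytosine as a first step in its removal. PRC2 places the repressive methyl mark on histone H3, with Ezh2 as the catalytic subunit typical of dividing cells and Ezh1 as the one typical of cells at rest.

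The study asked how early exposure to an estrogen alters the adult uterus. CD-1 mice received corn oil (CO) or diethylstilbestrol (DES, a synthetic estrogen) at 1 mg/kg/day by injection on days 1 to 5 after birth, and uteri were taken at 12 months. The CO mice were in estrus and the DES mice in persistent estrus, so treatment and cycle state come together. The study states that mice exposed in this way develop uterine adenocarcinoma by this age, and its DES sections were examined for it. Tumour tissue and treatment thus come together as well. For single cells, uterine horns were dissociated with trypsin and pooled from 2 CO mice into 1 library and from 4 DES mice into another. For spatial RNA, 1 section was taken from each of 2 CO mice (CO A and CO B, the latter with a fold) and 2 DES mice (DES A and DES B).

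Cells numbered 32387 in the CO library and 16312 in the DES library, at median depths of 6779 and 10153.5 UMIs (unique molecules counted per cell), and 180 barcodes occurred in both. The authors' labels named a type for 12253 and 9701 of these cells. Epithelial cells with at least 2 UMIs each of Krt14 and Trp63, which mark basal cells, were set apart. That left 2583 CO and 4772 DES epithelial cells, with median depths of 23458 and 23573.5 UMIs, and a basal group of 483 cells, all from DES. With 1 library per condition no test of DES against CO was possible in single cells, and every interval on those values is a 95% interval for counting error only. Sections held 1357 to 1834 spots and 9117099 to 12506177 UMIs. Stromal, endothelial, pericyte and muscle cells were named almost only in CO, with 1 stromal and 5 endothelial DES cells.

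In the GRCm38 build, the files' mm10, Dnmt1 lies at chr9:20907209-20959888 and Uhrf1 at chr17:56303321-56323486, while Ezh2 lies at chr6:47530139-47595341 and Ezh1 at chr11:101191115-101226463. Dnmt3a lies at chr12:3806007-3914443 and Dnmt3b at chr2:153649450-153687730. Tet1 lies at chr10:62804570-62908996, Tet2 at chr3:133463679-133545139 and Tet3 at chr6:83362373-83459084. RefSeq promoter windows, from 250 bases before to 50 bases after each annotated start, were searched on both strands for TTTCGCGC and TTTGGCGC, the core letters that the E2F factors of the G1/S transition bind. Of the 9 genes, 3 held a match, namely Dnmt1, Uhrf1 and Ezh2, against 251 of 27025 genes in all (0.929%) and 6 of 17 genes of an S phase list. The stretches are printed because these 3 genes also share the cluster pattern described further on, and the capitals mark the matched letters, given 5′ to 3′ on the gene's strand.
Dnmt1, chr9:20952824-20952853, minus strand: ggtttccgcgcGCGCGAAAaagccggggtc
Dnmt1, chr9:20952574-20952601, minus strand: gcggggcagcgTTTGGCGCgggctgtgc
Uhrf1, chr17:56304117-56304146, plus strand: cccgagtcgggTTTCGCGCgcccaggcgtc
Ezh2, chr6:47595009-47595038, minus strand: gggttgctgcgTTTGGCGCtcggtccggtc
The first Dnmt1 match reads TTTCGCGC on the opposite strand and begins 219 bases before a start, in an untranslated exon of another transcript, and the second begins 34 bases after that start. The Uhrf1 match begins 185 bases before a start, in an intron, and the Ezh2 match begins 4 bases after its start, in untranslated exon. TTTCGCGC stood in 106 of 32851 promoter windows (0.323%) and TTTGGCGC in 169 (0.514%). A match describes letters only, and the 6 other members had none in these windows.

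Across cell types the members differed in where they were highest, on the CPM scale (the gene's UMIs over all UMIs of the type, scaled to a common total). Dnmt3a, a de novo methyltransferase, stood highest in the myeloid cells of the DES library. It reached 246 CPM (226 to 267) in the 136 cells labelled DES-Myeloid-Lyz2hi and 151 (134 to 168) in the 228 other DES myeloid cells. The 67 CO myeloid cells, whose markers were mixed as given below, held 79.5 CPM (58.8 to 105), and endothelial cells, the next type, 47.9. After thinning every cell to 3000 UMIs, 40.5% of DES-Myeloid-Lyz2hi cells (32.0 to 49.4) held a Dnmt3a UMI, and 83.1% did without thinning. The lowest thinned share for Dnmt3a was that of DES lymphocytes, at 4.69% (14.2% unthinned), whose median depth was 5599 UMIs against 15418.5 in DES-Myeloid-Lyz2hi cells. No cell type known to lack these genes was at hand to set the background of free RNA, so low shares are given without a reading.

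Dnmt3b, the other de novo enzyme, stood highest in the 341 CO endothelial cells, at 19.4 CPM (14.4 to 25.5). No other type with more than 3 Dnmt3b UMIs passed 5 CPM. The 85 myocytes held no Dnmt3b UMI, which allows up to 3.36 CPM. Tet1 was low everywhere, at 11.1 CPM (7.55 to 15.8) in CO cells labelled Ctla2a and 9.13 in endothelial cells, whose intervals overlapped. No Tet1 UMI was found in the DES-Myeloid-Lyz2hi cells. Tet2, which is known for its part in blood cells, was highest in lymphocytes, at 61.0 CPM in CO (51.2 to 72.1) and 77.2 in DES (63.7 to 92.7), and in CO myeloid cells at 63.3 (45.0 to 86.5). These 3 values did not differ beyond their intervals. The cells labelled lymphocytes held 1275 and 1443 CPM of 5 lymphocyte markers in CO and DES but 3361 and 8733 CPM of 4 myeloid markers, so the markers do not bear the label out cleanly and the name is used here only as deposited. Tet3 was highest in CO endothelial cells at 63.5 CPM (54.3 to 73.9), which overlapped DES lymphocytes at 54.4 (43.2 to 67.6). Ezh1 was highest in CO stromal cells at 44.0 CPM (40.3 to 47.9) and endothelial cells at 43.0 (35.4 to 51.7), which overlapped.

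The 22 CO cells labelled Stmn1-hi were too few to be ranked. Among types with at least 50 cells, Dnmt1, Uhrf1 and Ezh2 shared their highest, the 67 CO myeloid cells. Dnmt1 was at 82.8 CPM there (61.6 to 109), Ezh2 at 73.0 (53.3 to 97.7) and Uhrf1 at 35.7 (22.4 to 54.1), on 51, 45 and 22 UMIs. The same cells held 737 CPM summed over 20 S phase genes and 1302 CPM over 20 G2/M genes. In DES myeloid cells these sums were 372 and 839, and Uhrf1 was at 5.88 CPM. The CO myeloid cells also held 4348 CPM of stromal, 852 of epithelial and 498 of mesothelial markers beside 6921 of myeloid markers. In DES myeloid cells these were at 215, 225, 43.6 and 17612 CPM, so the CO label was the more mixed. At the other end Uhrf1 was at 0.767 CPM in stromal cells (0.351 to 1.46), on 9 UMIs. The part of dividing cells, of other cell types and of the small cell number in these myeloid values was not tested.

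**Figure D1:**
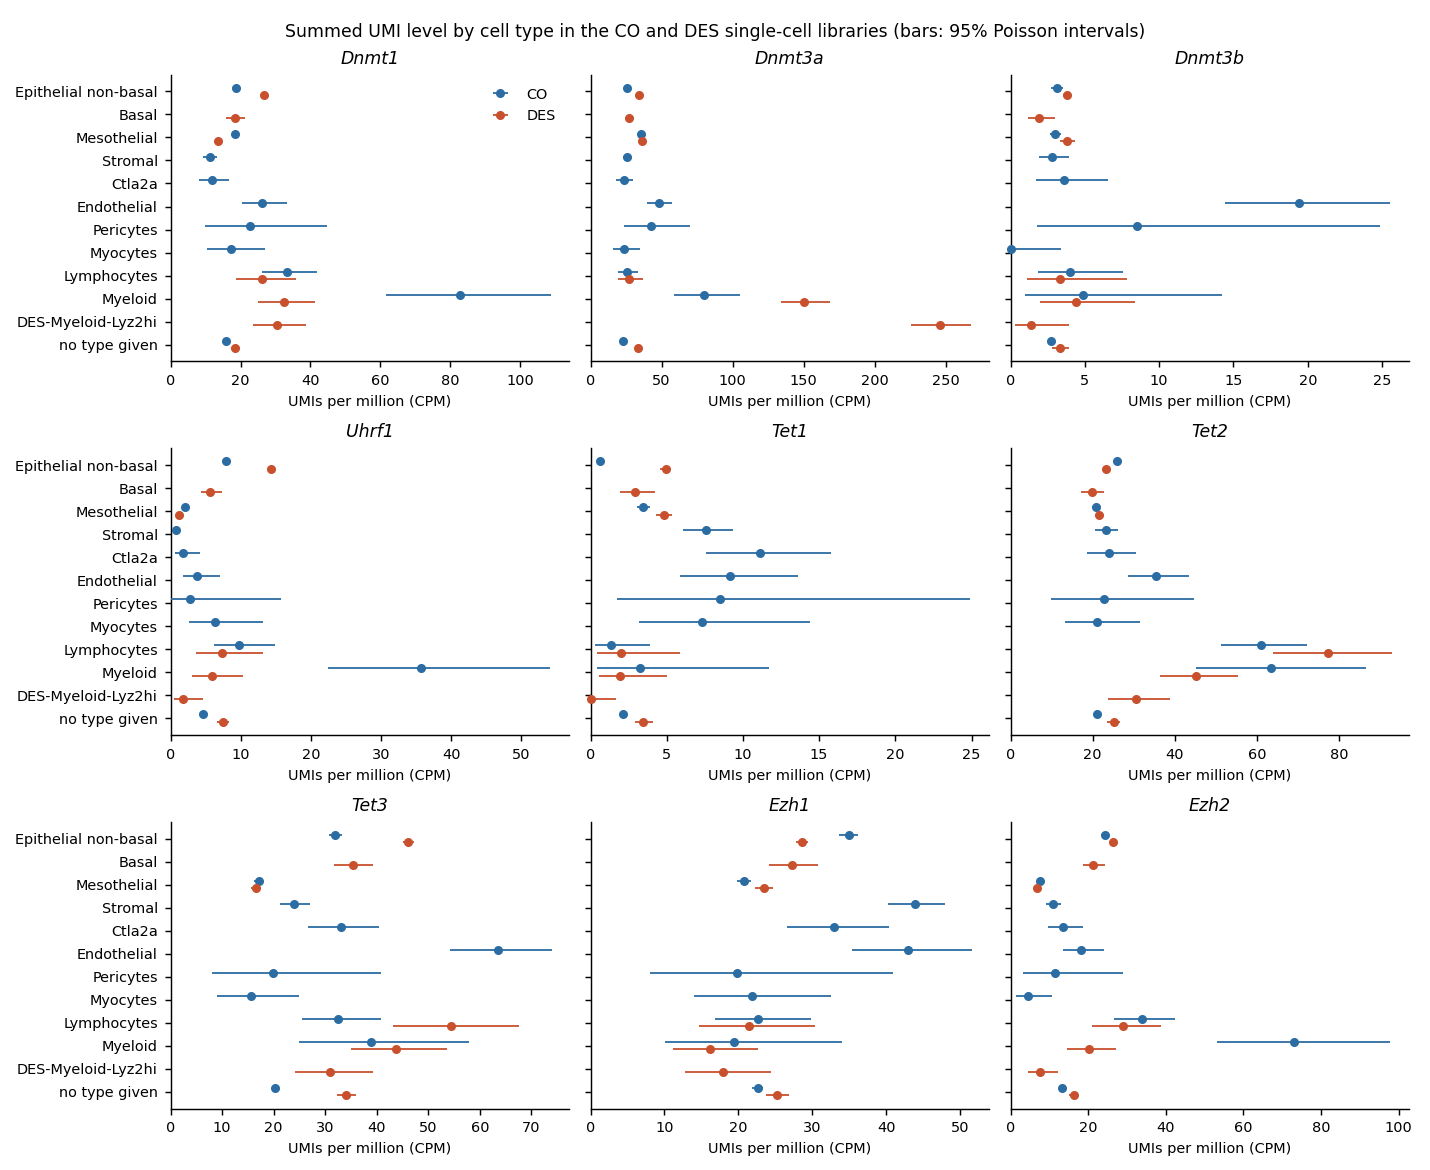
Level of each of the 9 genes in each cell type, in CPM of summed UMIs, with CO and DES libraries as separate points and bars giving the 95% counting interval. Dnmt3a peaks in DES myeloid cells at 246 CPM, Dnmt3b in CO endothelial cells at 19.4, and Dnmt1, Uhrf1 and Ezh2 in the 67 CO myeloid cells.

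In epithelial cells outside the basal group, Tet1 differed most between the libraries in ratio. It was at 0.622 CPM (0.460 to 0.822) in CO, on 49 UMIs, and at 4.92 (4.59 to 5.27) in DES, on 818 UMIs, a DES over CO ratio of 7.91 (5.93 to 10.8). Thinned to 3000 UMIs, 0.156% of CO cells (0.043 to 0.399) and 1.29% of DES cells (0.990 to 1.66) held a Tet1 UMI, and 1.78% and 13.5% did without thinning. Both levels were under 5 CPM, so Tet1 was not among the genes counted past a fold. Uhrf1, the partner of Dnmt1, was at 7.94 CPM in CO and 14.4 in DES, a ratio of 1.81 (1.65 to 1.98). Its share of thinned cells was 2.03% in CO and 3.07% in DES, with overlapping intervals. Markers of other types also differed between these cells of the 2 libraries. The 3 basal markers summed to 1.22 CPM in CO and 135 in DES, and 5 stromal markers to 232 and 93.4. Their part in the ratios was not tested.

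The other methylation genes differed less. Dnmt1 was at 18.6 CPM in CO and 26.8 in DES (ratio 1.44, 1.36 to 1.53). Tet3 was at 32.0 and 46.1 CPM (ratio 1.44, 1.38 to 1.51), and Dnmt3a at 25.5 and 34.3 (ratio 1.34, 1.28 to 1.42). Dnmt3b was at 3.10 and 3.79 CPM (ratio 1.22, 1.05 to 1.42). Tet2 was slightly lower in DES, at 26.0 CPM in CO and 23.3 in DES (ratio 0.898, 0.851 to 0.948). The PRC2 enzymes went apart, with Ezh1 at 34.9 and 28.6 CPM (ratio 0.820, 0.783 to 0.860) and Ezh2 at 24.3 and 26.4 (ratio 1.08, 1.03 to 1.15). The median ratio over 9599 genes with a mean of at least 5 CPM was 1.06. Of the 7 members at that level, 1 (Uhrf1) passed 1.5-fold upward, where 18.0% of all such genes did. Downward 0 passed it, where 14.4% did. The size of the Uhrf1 ratio, and so this call, depended on which clusters entered, as given further on. After thinning, the share of cells with a UMI was 5.15% in CO (4.33 to 6.08) and 7.06% in DES (6.34 to 7.83) for Dnmt1, 7.38% (6.39 to 8.46) and 10.1% (9.28 to 11.03) for Dnmt3a and 9.76% (8.64 to 10.97) and 12.0% (11.1 to 12.96) for Tet3.

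**Figure D2:**
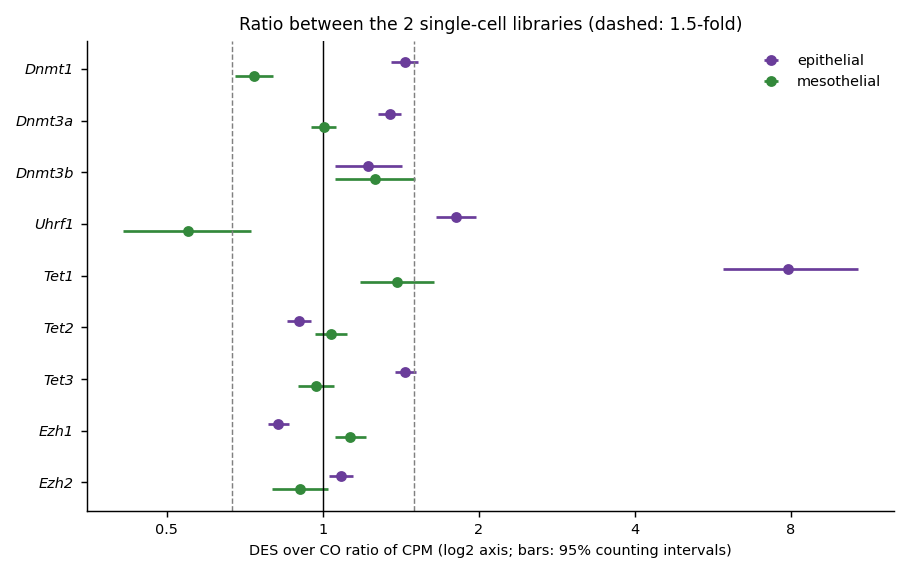
Ratio of DES over CO level for each gene in epithelial cells outside the basal group and in mesothelial cells, on a log axis, with 95% counting intervals and 1 library per condition. In epithelial cells Tet1 (7.91) and Uhrf1 (1.81) stand above the 1.5-fold line, and in mesothelial cells Uhrf1 stands below it at 0.549.

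The basal group of DES cells held less of several members than the other DES epithelial cells. Uhrf1 was at 5.66 CPM (4.28 to 7.35) in basal cells against 14.4 in the others, and Dnmt1 at 18.3 (15.7 to 21.2) against 26.8. Tet3 was at 35.4 CPM (31.8 to 39.3) against 46.1, Dnmt3a at 27.2 (24.0 to 30.7) against 34.3, and Tet1 at 2.93 (1.96 to 4.21) against 4.92. The cells of the basal group were shallower, with a median of 16093 UMIs. Ezh1, at 27.3 CPM (24.1 to 30.8), overlapped the other DES epithelial cells at 28.6.

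Mesothelial cells, the other type well sampled in both libraries (6866 CO and 3837 DES cells), gave another picture. Their labels were checked against 4 mesothelial markers, which summed to 2343 and 2486 CPM, while 5 stromal markers summed to 17796 and 19031 CPM, nearly all of it Dcn. Of the stromal markers, Dpt, Vcan and Pdgfra were each under 5 CPM there, but Col6a3 was at 111 CPM in CO and 65.5 in DES. Dnmt1 was lower in DES, at 18.5 CPM in CO and 13.6 in DES (ratio 0.735, 0.676 to 0.799). Uhrf1 was low in both, at 2.06 and 1.13 CPM (ratio 0.549, 0.412 to 0.726). Tet1 was at 3.45 and 4.80 CPM (ratio 1.39, 1.18 to 1.64), Dnmt3a at 35.8 and 35.9, Tet2 at 20.8 and 21.6 and Tet3 at 17.1 and 16.6. Ezh1 was at 20.7 and 23.4 CPM (ratio 1.13) and Ezh2 at 7.63 and 6.89 (ratio 0.903, 0.798 to 1.02). None of the 6 members at 5 CPM or more passed 1.5-fold, where 6.0% of 10280 genes did upward and 5.42% did downward.

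Within the epithelium, Dnmt1, Uhrf1 and Ezh2 were concentrated in few of the authors' clusters, of which there were 15 in CO and 16 in DES. Among CO clusters, cluster 14, which holds 28 cells, had 104 CPM of Dnmt1 (83.7 to 127), 83.7 of Uhrf1 (66.0 to 105) and 86.0 of Ezh2 (67.9 to 107). Cluster 4, with 187 cells, came next at 41.7, 33.0 and 56.9 CPM. The median over the 15 CO clusters was 15.8 CPM for Dnmt1, 4.34 for Uhrf1 and 21.3 for Ezh2. The study named CO 4 luminal progenitors and CO 14 glandular progenitors. After thinning, 45.9% of cells in CO 4 and 71.4% in CO 14 held a UMI of Mki67 or Top2a, which mark dividing cells. Together these clusters held 8.32% of the CO epithelial cells and 10.6% of their UMIs, but 51.6% of the Uhrf1 UMIs, 27.7% of Dnmt1 and 26.3% of Ezh2.

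Among DES clusters, cluster 4 with 492 cells stood highest for all 3 genes, at 50.4 CPM of Dnmt1 (47.8 to 53.2), 45.7 of Uhrf1 (43.2 to 48.3) and 41.5 of Ezh2 (39.1 to 44.0). Its Dnmt1 interval just overlapped that of DES 13, at 41.0 CPM (34.8 to 47.9). Its Uhrf1 interval lay above that of every other DES cluster, the next being cluster 14 at 21.9 CPM (16.4 to 28.6). For Ezh2 it overlapped DES cluster 6, at 38.9 CPM (36.0 to 42.0), the DES cluster richest in division genes. In DES 6, 38.1% of cells held a UMI of Mki67 or Top2a, against 15.9% in DES 4, yet Uhrf1 was at 17.3 CPM in DES 6. DES 4 held 10.7% of the clustered DES epithelial cells and 16.3% of their UMIs, but 51.2% of the Uhrf1 UMIs, 30.5% of Dnmt1 and 25.4% of Ezh2. Its cells were deep, with a median of 51066.5 UMIs, as were those of DES 6 with 65030.5. The part of doublets in these depths was not tested here, though the study's methods state that doublets were removed.

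The clusters rich in these 3 genes differed in which cell cycle genes they held. The 20 S phase genes summed to 1244 CPM in CO 14, 962 in DES 4, 682 in CO 4 and 512 in DES 6. The 20 G2/M genes summed to 3404 CPM in CO 14, 2691 in CO 4 and 1629 in DES 6 but 522 in DES 4. In the 414 DES 4 cells with no Mki67 or Top2a UMI after thinning, Uhrf1 was still at 41.4 CPM (38.8 to 44.1), against 70.6 (62.5 to 79.4) in the 78 cells that had one. In the 161 such cells of DES 6 Uhrf1 was at 10.1 CPM (8.34 to 12.2), against 32.6 in the 99 that had one. In CO 4 and CO 14 together it was at 26.9 CPM (22.1 to 32.4) without and 49.8 (43.4 to 57.0) with one. Ezh2 was at 36.8 CPM without and 68.5 with one in DES 4, 27.4 and 63.2 in DES 6, and 41.7 and 77.8 in the CO clusters. Over the 31 clusters, the correlation of log2(CPM + 1) with Pcna was 0.87 for Uhrf1, 0.85 for Dnmt1 and 0.71 for Ezh2, and that with Top2a was 0.75, 0.75 and 0.84. Within CO clusters alone the values with Pcna were 0.84, 0.80 and 0.83 and those with Top2a 0.84, 0.89 and 0.87, so the order of the 3 genes over all clusters was not that within CO. Within DES clusters they were 0.95, 0.95 and 0.79 with Pcna and 0.77, 0.69 and 0.81 with Top2a.

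**Figure D3:**
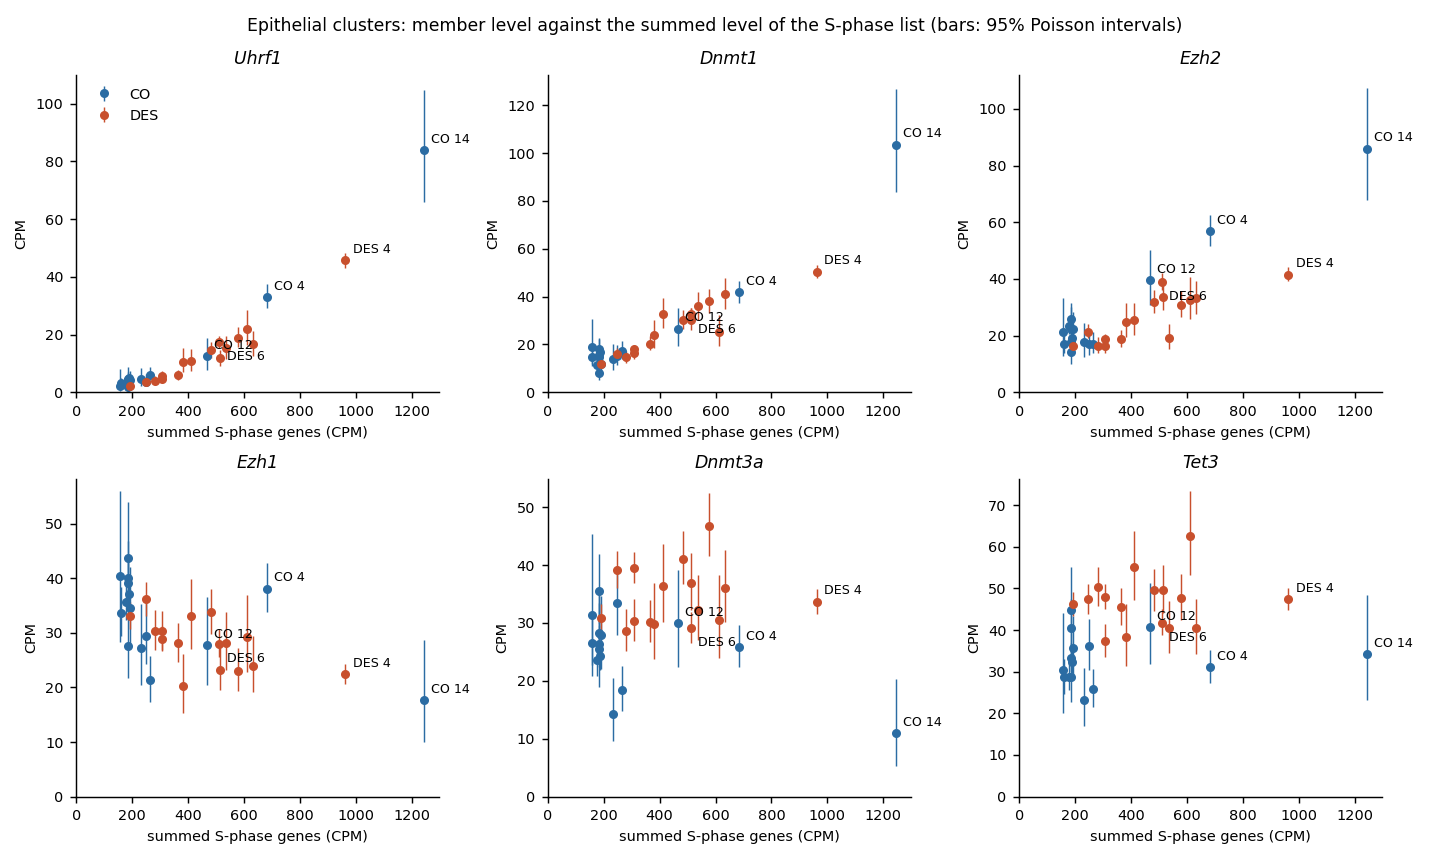
Level of 6 of the genes in each epithelial cluster (15 CO and 16 DES) against the summed level of 20 S phase genes, both in CPM, with 95% counting intervals. Dnmt1, Uhrf1 and Ezh2 rise along the axis to CO 14 at 1244 CPM of S phase genes and DES 4 at 962. Ezh1, Dnmt3a and Tet3 do not peak in these clusters. Over all 31 clusters their r with Pcna, an S phase gene, was -0.57, 0.21 and 0.53. It was -0.51, -0.29 and 0.27 within CO and -0.50, 0.26 and 0.20 within DES.

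In these 2 libraries, epithelial cells with a UMI of Mki67 or Top2a, both genes of the G2/M list, were not more common in DES. After thinning, 7.06% of CO epithelial cells (6.10 to 8.13) and 5.79% of DES cells (5.14 to 6.49) held one, and 3.52% of basal cells did. The 20 G2/M genes summed to 462 CPM in CO and 407 in DES, but the 20 S phase genes to 257 and 460. By tissue staining the study saw TOP2A protein in scattered luminal cells and invaginating glands of CO uteri. In DES uteri it saw the protein in many luminal and glandular cells. Within CO, cells with such a UMI had 6.85 times the Uhrf1 of cells without (5.81 to 8.06), 3.12 times the Dnmt1 and 2.79 times the Ezh2. Within DES the ratios were 3.26 for Uhrf1 (2.95 to 3.59), 1.98 for Dnmt1 and 2.38 for Ezh2. Cells without a marker UMI after thinning held 5.28 CPM of Uhrf1 in CO (4.76 to 5.84) and 12.1 in DES (11.6 to 12.7). Such cells may hold a marker UMI unthinned, so they are not known to be at rest. For Dnmt3a, Tet2, Tet3 and Ezh1 the intervals of these ratios held 1 in both libraries. Taken by cluster instead, DES 6 stood below the other DES clusters for Dnmt3a (ratio 0.834, 0.758 to 0.915), Tet2 (0.844, 0.752 to 0.945) and Tet3 (0.892, 0.824 to 0.965). CO 4 and CO 14 together did so for Tet2 (0.805, 0.687 to 0.939). By the same split Uhrf1 was 8.96 times as high in the cycling clusters of CO (7.63 to 10.5) but 1.22 times in that of DES (1.08 to 1.38).

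The size of the Uhrf1 ratio between the libraries depended on which clusters entered. Without the cycling clusters (CO 4, CO 14 and DES 6) the DES over CO ratio was 3.26 for Uhrf1 and 1.74 for Dnmt1. A rise is built into this choice, since CO 4 and CO 14 held 51.6% of the CO Uhrf1 UMIs while DES 4, with 51.2% of the DES Uhrf1 UMIs, stayed in. Without these and DES 4, an alternative chosen after seeing the data, it was 1.66 for Uhrf1, 1.39 for Dnmt1 and 1.07 for Ezh2. Leaving out DES 4 alone gave 1.05 for Uhrf1, but that cluster was picked as the one highest in Uhrf1 while the matching CO clusters stayed in, so a fall was built into the choice. With every cluster weighted equally the Uhrf1 ratio was 1.11. Tet1 kept a ratio between 6.27 and 9.54, Tet3 between 1.42 and 1.46 and Dnmt3a between 1.33 and 1.37 over the alternatives tried on cells and scaling.

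All 16 DES clusters lay above the CO cluster median for Tet1, Tet3 and Dnmt3a, as they did for 23.3% of the 12399 genes with a mean of at least 1 CPM over the clusters. At least 13 did for 6 of the 9 members (14 for Dnmt1, 13 for Uhrf1 and 13 for Dnmt3b beside the former 3), and for 43.6% of all those genes, while Ezh2 had 10. Such patterns were thus common over all genes. Tet1 ranged from 0 to 3.96 CPM with a median of 0.510 over CO clusters, and from 1.42 to 11.02 with a median of 5.00 over DES clusters, 11 of which lay above the CO maximum. Tet3 ranged from 23.2 to 44.7 CPM in CO and from 37.3 to 62.7 in DES, with 11 DES clusters above the CO maximum. Dnmt3a ranged from 11.02 to 35.4 CPM in CO and from 28.6 to 46.8 in DES, with 7 above the CO maximum. Ezh1 and Tet2 ran the other way, with 15 of 16 DES clusters below the CO median of 34.6 CPM for Ezh1 and 13 below that of 26.9 CPM for Tet2, where 28.7% of all genes had at least 13 below. Clusters of 1 library share its cells and preparation and are no replicates of the treatment. The share of all genes with as many DES clusters above the CO maximum was not computed, so those counts are given without a reading.

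The clusters highest in the de novo enzymes and Tet1 were others, and only Dnmt3b in CO stood apart from the next cluster. CO cluster 12, the 71 cells that the study proposed as epithelial stem cells, had 11.9 CPM of Dnmt3b (7.35 to 18.2) on 21 UMIs, while the next, cluster 4, had 4.68 (3.26 to 6.51). Of the other CO clusters only cluster 13 had an interval that reached it, on 2 UMIs. The same cluster had the highest CO level of Tet1, at 3.96 CPM (1.59 to 8.16) on 7 UMIs, which overlapped the next, and 39.6 CPM of Ezh2 (30.9 to 50.04). Among DES clusters Dnmt3b was highest in cluster 15 at 7.09 CPM (4.33 to 10.96), which overlapped cluster 10 at 5.81, and Tet1 in cluster 8 at 11.02 (8.53 to 14.02), which overlapped cluster 11 at 8.67. Dnmt3a was highest in DES 11 at 46.8 CPM, which overlapped DES 9 at 41.1, and lowest in CO 14, the S phase-rich cluster, at 11.02 (5.28 to 20.3) on 10 UMIs. Tet2 was highest in CO 7 at 51.3 CPM and Tet3 in DES 14 at 62.7, each overlapping the next cluster of its library.

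**Figure D4:**
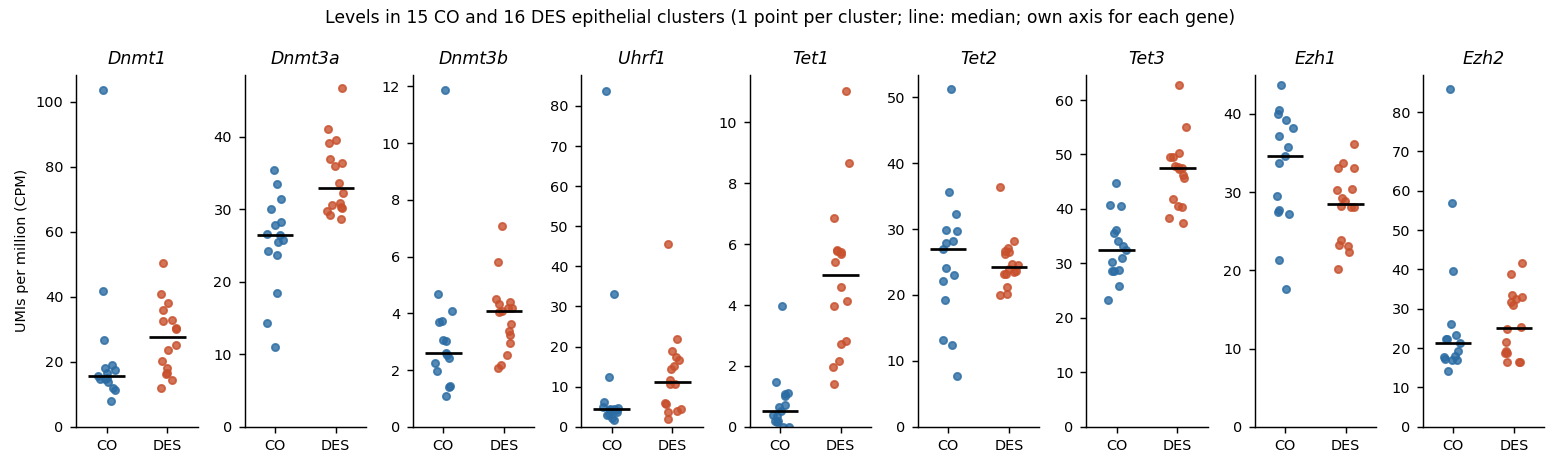
Level of each gene in every epithelial cluster, in CPM, with the 15 CO and 16 DES clusters in separate strips and a line at the median of each. All DES clusters lie above the CO median for Tet1, Tet3 and Dnmt3a, and most do for Dnmt1, Uhrf1 and Dnmt3b, while the highest cluster of Uhrf1, Dnmt1 and Ezh2 is CO 14.

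The genes whose profile over the 31 clusters was most like each member's were ranked by Pearson correlation of log2(CPM + 1) among 8252 genes, as a description over clusters that share libraries. For Uhrf1 they were Mcm5 (r = 0.95), a subunit of the replicative helicase, Dnmt1 (0.94) and Chaf1a (0.94), a chromatin assembly factor. For Dnmt1 they were Uhrf1, Mcm5 and Nrm (0.90), and for Ezh2 Nap1l1 (0.90), Rrm1 (0.89), a ribonucleotide reductase subunit, and Nucks1 (0.89). Within CO clusters alone Dnmt1 and Uhrf1 had r = 0.95, and within DES clusters 0.93. Tet1 was most like Atf7ip (0.92), Aamdc (0.91) and Irs1 (0.91), and Tet3 most like Tcf7 (0.92), Prkcd (0.88) and Sipa1l3 (0.87). Within a library these values were lower, at 0.68 to 0.80 for the Tet1 genes and 0.44 to 0.81 for the Tet3 genes.

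For Dnmt3a, Dnmt3b, Tet2 and Ezh1 the most alike genes correlated less within DES clusters than within CO clusters. Dnmt3a was most like Slc22a18 (0.88), Gsk3b (0.86) and Plekhs1 (0.86), and the first had r = 0.91 within CO and 0.21 within DES clusters. Dnmt3b was most like Ehmt1 (0.78), a histone methyltransferase, Plat (0.75) and Ap1s2 (0.73). Tet2 was most like Cyld (0.87), Frk (0.87) and Celsr2 (0.85), with r = 0.95 for the last within CO and 0.17 within DES, and Ezh1 most like Ralgapa2 (0.81, with 0.89 within CO and 0.57 within DES), Hook3 (0.81) and Blcap (0.77).

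Other genes of the same pathways were read in epithelial cells from lists chosen by function, beside 18.0% of all genes past 1.5-fold upward and 14.4% downward. Of 8 PRC2 partners at 5 CPM or more, 3 passed 1.5-fold upward in DES and 0 downward: Mtf2 (1.76), Rbbp4 (1.62) and Phf1 (1.57). The core subunits Eed and Suz12 were at ratios of 1.11 and 1.01. Of 17 genes of PRC1, the complex that marks histone H2A, 4 passed upward and 0 downward, with Cbx6 at 3.28 (3.05 to 3.54) and Cbx7 at 2.74 (2.37 to 3.17), both readers of the PRC2 mark. None of the 5 histone demethylase and H2A deubiquitinase genes passed in either direction. Of 8 methyl-CpG readers, 2 passed upward, among them Zbtb4 (1.89), and 0 downward. Of 10 genes of DNA demethylation and its cofactors, 2 passed upward, Idh2 (2.65) and Apex1 (1.65), and 3 downward, Gadd45a (0.545), Gadd45g (0.563) and Gadd45b (0.638). List medians were 1.196 for PRC2 partners, 1.23 for PRC1 and 1.03 for demethylation genes, beside 1.06 over all genes.

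The cell cycle lists moved apart between the libraries, against the same 18.0% of all genes upward and 14.4% downward. Of 18 S phase genes, 14 passed 1.5-fold upward and 0 downward (median ratio 1.85), among them Tipin (2.92), Cdt1 (2.77) and Mcm7 (2.76). Of 14 G2/M genes, 0 passed upward and 7 downward (median 0.674), among them Tpx2 (0.477), Cenpe (0.533), Kif23 (0.540) and Ccna2 (0.557). Pcna, the replication clamp, was at 9.86 CPM in CO and 19.3 in DES. The Dnmt1 ratio of 1.44 lay under the S phase median and the Uhrf1 ratio of 1.81 close to it. Of PRC2 and PRC1 partners, Phf1 (1.67) and Cbx7 (1.58) also passed upward in mesothelial cells, as 1 of 8 and 1 of 18 genes, with 0 downward, near the 6.0% of all genes there. Of 13 S phase genes, 0 passed upward in mesothelial cells and 2 downward, where 5.42% of all genes did. Of 10 demethylation and cofactor genes there, 0 passed upward and 4 downward: Gadd45g (0.382), Idh1 (0.515), Gadd45b (0.530) and Gadd45a (0.615). Gadd45 levels were thus lower in the DES library in both epithelial and mesothelial cells. With 1 library per condition, treatment and cell preparation cannot be told apart here.

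In the spatial sections the levels are of whole spots, which mix cell types, so fewer cells of a type and less RNA per cell cannot be told apart. Over whole sections Tet3 stood at 14.9 and 17.5 CPM in CO (A, then B) and at 28.3 and 26.4 CPM in DES (A, then B), so both DES sections lay above both CO sections. Dnmt1 was at 27.2, 19.1, 37.3 and 34.1 CPM in the same order, Dnmt3a at 24.7, 23.3, 34.4 and 30.9, Tet2 at 12.95, 17.04, 21.2 and 19.1 and Dnmt3b at 2.80, 2.72, 4.17 and 3.34. These 5 genes of 9 had both DES sections above both CO sections, which 43.8% of the 14098 tested genes had, and 0 had them below, which 17.9% had. The CO B section stood high for Ezh1, at 110 CPM against 60.2 in the other CO section and 88.0 and 87.1 in DES. Ezh2 was at 14.1 and 13.2 CPM in CO and 13.9 and 10.9 in DES. Uhrf1, at 6.96, 3.53, 8.67 and 4.76 CPM, had ranges in CO and DES that overlapped. Tet1 was at 0.720, 2.99, 0.877 and 1.21 CPM, on 8 to 33 UMIs a section, and overlapped too.

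By edgeR's quasi-likelihood test over all 14098 genes, with Benjamini-Hochberg adjustment and 2 against 2 sections, 0 of the 9 members passed an adjusted p of 0.05 in either direction, where 2.67% of genes were higher and 2.63% lower in DES. DESeq2 also called 0. At an unadjusted p under 0.05, where 24.4% of all genes lay, there was 1 member, Tet3, with a log2 difference of 0.55 (SE 0.18, edgeR adjusted p = 0.160). The fit scales sections by TMM factors of 0.912 to 1.10, which sets DES lower against CO than the plain CPM do. Ezh1 and Ezh2 had fitted log2 differences of -0.16 (SE 0.30, edgeR adjusted p = 0.804) and -0.35 (SE 0.22, edgeR adjusted p = 0.411). Tet1, with a DES over CO ratio of 7.91 in epithelial single cells, was at -0.99 over whole sections (SE 0.79, edgeR adjusted p = 0.509), which mix all cell types. In epithelium-rich spots, described below, Tet1 lay under the filter on low counts. With genes of at least 1 count kept, its log2 difference there was 0.61 (SE 0.98, edgeR adjusted p = 0.752). For Dnmt1 the log2 difference was 0.41 (SE 0.24, edgeR adjusted p = 0.368). Without CO A, with CO B as the only CO section, it was 0.71, and without CO B it was 0.16. Muscle markers moved with the condition, with 5 genes summing to 13345 and 14168 CPM in CO and 3077 and 3458 in DES, and so did 3 basal markers, at 3.36 and 160 in CO and 9526 and 5644 in DES. Stromal markers were at 2452 and 2453 CPM in CO and 1140 and 762 in DES, and myeloid markers, of the cells with the most Dnmt3a, at 285 and 610 in CO and 1977 and 1085 in DES. Their part in the members' values was not tested.

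Spots rich in epithelial markers, the top 20% of each section, gave Ezh2 the other direction from Tet3. Ezh2 was at 19.2 and 15.03 CPM in CO and at 11.9 and 10.2 CPM in DES (A, then B), on 92, 61, 36 and 29 UMIs, so both DES sections lay below both CO sections. Its log2 difference was -0.94 (SE 0.29, edgeR adjusted p = 0.117). Without CO B it was -1.12, and without CO A it was -0.72. Tet3 was at 18.4, 20.2, 36.7 and 31.7 CPM, a log2 difference of 0.52 (SE 0.22, edgeR adjusted p = 0.204). In the same spots the 20 G2/M genes summed to 290 and 146 CPM in CO and 155 and 107 in DES, the 20 S phase genes to 316 and 250 in CO and 459 and 351 in DES, and the 3 basal markers to 4.38 and 170 in CO and 9727 and 6330 in DES. Myeloid markers were at 78.1 and 154 CPM in CO and 1817 and 698 in DES, muscle markers at 281 and 263 in CO and 558 and 813 in DES, and stromal markers at 1177 and 834 in CO and 531 and 360 in DES. The part of these cells in the Ezh2 and Tet3 values was not tested. In epithelial single cells outside the basal group the DES over CO ratio was 1.08 (1.03 to 1.15) for Ezh2 and 1.44 for Tet3. The lower Ezh2 of these spots was thus not seen in single cells.

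Of the 8 members tested in the epithelium-rich spots, all but Tet1, 0 passed in either direction, where 4.16% of 11945 genes were higher and 2.84% lower. DESeq2 called 0 as well, and 1 member, Ezh2, had an unadjusted p under 0.05, as had 26.6% of all genes. Both DES sections lay above both CO sections for 4 members (Dnmt1, Dnmt3a, Tet2 and Tet3), which 48.4% of genes had, and below for 1 (Ezh2), which 14.9% had. Dnmt1 was at 28.2, 18.0, 39.6 and 34.9 CPM there. Tet1, under the filter on low counts, was at 0.209, 2.22, 1.98 and 2.47 CPM. Ezh1 was at 69.5, 147, 88.5 and 99.4 CPM, with CO B far above the rest. Its log2 difference was -0.50 (SE 0.36, edgeR adjusted p = 0.437). Leaving out 1 section gave -0.93 (without CO A) to 0.11, so the direction was not kept.

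**Figure D5:**
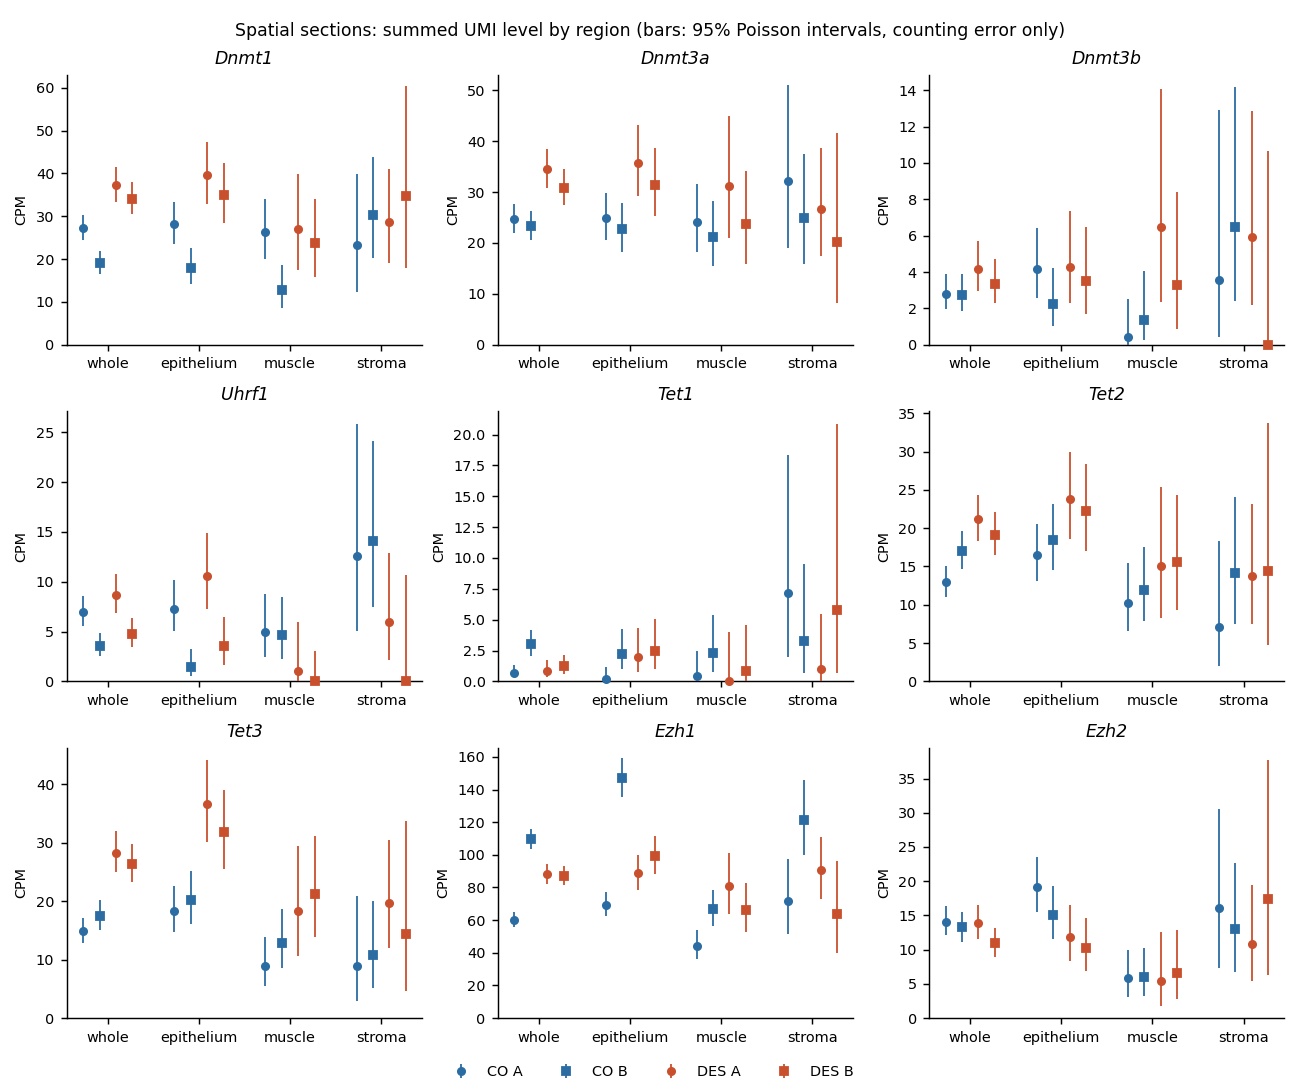
Level of each gene in CPM over whole sections and over stromal, epithelium-rich and muscle-rich spots, with 1 point per section (CO A, CO B, DES A, DES B) and 95% counting intervals. In epithelium-rich spots Ezh2 lies lower in both DES sections (11.9 and 10.2 CPM) than in both CO sections (19.2 and 15.03), and Tet3 lies higher.

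In spots rich in muscle markers, and in the clusters the study named as stroma, the members were sparser. Of 6 members tested in muscle-rich spots (not Dnmt3b, Uhrf1 or Tet1), 0 passed in either direction by edgeR or by DESeq2 and 0 had an unadjusted p under 0.05, where 3.15% of 10685 genes were higher, 1.89% lower and 18.2% at that unadjusted p. Of the same 6 in stromal spots, likewise 0 passed and 0 had an unadjusted p under 0.05, where 0.796% of 8914 genes were higher, 0.673% lower and 13.4% at that unadjusted p. Uhrf1 in muscle-rich spots had 11 and 10 UMIs in CO and 1 and 0 in DES. It lay under the filter on low counts there, so it was not among the 6 tested. With genes of at least 1 count kept, its log2 difference was -3.42 (SE 1.18, edgeR adjusted p = 0.0475). That value rests on the 1 and 0 UMIs in DES, and the share of all genes called in that fit was not set beside it. Tet3 was at 8.95 and 12.9 CPM in CO and 18.3 and 21.3 in DES there (log2 difference 0.60, SE 0.38, edgeR adjusted p = 0.468). These muscle-rich spots differed in makeup, with muscle markers at 48516 and 48191 CPM in CO and 22163 and 19150 in DES, basal markers at 1.34 and 7.83 in CO and 2842 and 2212 in DES, and epithelial markers at 272 and 206 in CO and 759 and 1070 in DES. The stromal spots did too, with stromal markers at 5452 and 4056 CPM in CO and 2890 and 1923 in DES, muscle markers at 888 and 700.2 in CO and 2705 and 8369 in DES, and basal markers at 0 and 89.97 in CO and 7058 and 1998 in DES. In DES the stromal markers were thus exceeded by those of basal cells (DES A and DES B) or muscle (DES B), and the part of this makeup in the members' values was not tested.

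Whether the DES effect differed between epithelium-rich and muscle-rich spots was tested with section as a block, over the same muscle-rich spots whose makeup differed between conditions. Of 8 members tested (not Tet1), 0 passed, where 4.59% of 12574 genes were higher and 4.27% lower in epithelium-rich spots, and DESeq2 called 0 but gave no adjusted p for Uhrf1 and Dnmt3b. Uhrf1 was the 1 member with an unadjusted p under 0.05, which 22.9% of all genes had, at a log2 difference of 3.95 (SE 1.37, edgeR adjusted p = 0.105) that rests on the 1 and 0 muscle UMIs in DES. Since Uhrf1 was under the filter in muscle-rich spots, it entered this fit through the spots where it is higher. With the top 30% of spots the difference was 1.53 (edgeR adjusted p = 0.324), and leaving out 1 section gave 2.98 to 6.57. With genes of at least 1 count kept it was 3.94 (edgeR adjusted p = 0.0246), without the share of all genes called in that fit beside it. Ezh1 was at -0.53 (SE 0.29, edgeR adjusted p = 0.309), and at -0.83 without CO A. Without 1 of the other sections it was -0.31 to -0.73.

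Few pathway partners passed these spatial tests. Phc2, a PRC1 subunit, rose in epithelium-rich spots (log2 difference 0.92, SE 0.18, edgeR adjusted p = 0.0455), as 1 of 20 PRC1 genes, with 0 lower, which is close to the 4.16% of all genes that were higher. Between regions, the DES effect on Gadd45a, a demethylation factor, was lower in epithelium-rich than in muscle-rich spots (log2 difference -1.54, SE 0.37, edgeR adjusted p = 0.0264). It was 1 of 11 tested demethylation genes, with 0 higher, where 4.27% of all genes were lower. In the same fit 5 of 5 epithelial markers were lower and 5 of 5 muscle markers higher in epithelium-rich spots. The part of this makeup in the Gadd45a value was not tested. No gene of the S phase or G2/M lists passed in any of the 5 comparisons by edgeR, and 1 of 20 and 8 of 19 of them had an unadjusted p under 0.05 over whole sections, where 24.4% of all genes had.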

How the data were processed

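Per the submitters' processing notes, reads were handled with bcl2fastq 2.20.0.422, Cell Ranger 3.0.1 (single cells) and Space Ranger 1.2.2 (spots) on mm10. The deposited values are raw UMI counts per gene and cell or spot, which the authors did not normalize, and their metadata give cell types and clusters. The study's methods state that doublets were removed with scran. Counts were summed per library and group, scaled to CPM, and given exact Poisson intervals and exact binomial (Clopper-Pearson) intervals for shares (95%), after thinning to 3000 UMIs. Cell types under 50 cells were left out, as were 350 metadata cells without counts.

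Spatial UMIs were summed per section, which was the replicate (1 mouse), so p-values measure the spread between these sections. edgeR 4.0.16 (R 4.3.3) with TMM and filterByExpr was the test, checked on simulated data, with DESeq2 1.42.0 as an alternative. Epithelium-rich and muscle-rich spots were the top 20% of their section by marker score, and SE is the difference over the square root of F. Promoters came from RefSeq (GRCm38.p6), gene positions from GENCODE. Python 3.11.15 was used. Members and lists were chosen with earlier results of these data known. Named beside the members were the 5 largest and 5 smallest epithelial ratios among list genes, spatial list genes past the threshold (at most 5 a direction), the 3 most alike genes per member over clusters, and Mki67, Top2a and Pcna. Other list genes were named after their values were seen. Some list genes that these rules select are not reported here.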

Additional observations from a re-analysis of the deposited data

How the results depend on the processing

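In epithelial single cells the count of members past 1.5-fold, 1 as reported, was 0 at a mean of at least 20 CPM, 0 at 2-fold, 0 with every cluster weighted equally and 0 without DES 4, and it was 2 at a mean of at least 1 CPM (with Tet1), 2 without the cycling clusters and 2 without cells holding a UMI of Mki67 or Top2a. In mesothelial cells it went from 0 to 1 at 1 CPM. The share of all genes past the fold was not set beside each of these alternatives, so the counts are given without a reading. Alternatives without DES 4 and without shared barcodes were chosen after seeing the data. Of 126 single-cell ratios under alternatives, 110 moved by less than their counting interval.

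Over all genes edgeR called 747 in whole sections, 131 in stromal, 836 in epithelium-rich and 539 in muscle-rich spots and 1114 between regions. DESeq2 called 1791 in whole sections, 1329 in epithelium-rich spots and 651 between regions. With genes of at least 1 count there were 714 stromal, 1527 epithelium-rich, 1365 muscle-rich and 1733 regional calls. The top 15% of spots gave 192 muscle-rich and 659 regional calls and the top 30% gave 1038 muscle-rich calls. The section letters share only a number, as the deviations of same-lettered sections had r = -0.03 over 14098 genes. With a replicate block of the letter there were 527 calls in whole sections, 453 in stromal, 1274 in epithelium-rich and 596 in muscle-rich spots, no member was called, and Dnmt3b in epithelium-rich spots turned from -0.04 to 0.0072. Leaving out 1 section, with a lone sample assumed to vary like the other condition, gave 3 to 2819 calls in whole sections, 40 to 357 stromal, 12 to 2638 epithelium-rich, 214 to 2040 muscle-rich and 382 to 2475 regional calls.

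The direction of several members depended on the setting, on the log2 scale, including Tet1 in whole sections, at -0.99 as reported by edgeR, and Ezh1 in epithelium-rich spots, at -0.50. In epithelium-rich spots Dnmt3b was 0.0077 at the top 15%. In muscle-rich spots Dnmt3a was -0.039 with at least 1 count and -0.0033 at the top 30%, and Dnmt1 was -0.087 at the top 15% and -0.0055 at the top 30%. Stromal spots taken by marker score gave Dnmt3a 0.15 and Ezh1 0.11. Leaving out a section ranged over both signs in whole sections for Uhrf1 (-0.35 to 0.73), Tet1 (-1.68 to 0.31) and Ezh1 (-0.51 to 0.31). In stromal spots it did for Dnmt1 (-0.088 to 0.39), Tet2 (-0.12 to 0.18, from only 2 such fits) and Ezh1 (-0.72 to 0.092). In epithelium-rich spots it did for Dnmt3b (-0.41 to 0.53), Uhrf1 (-0.62 to 1.95) and Ezh1 (-0.93 to 0.11), and in muscle-rich spots for Dnmt1 (-0.32 to 0.68), Dnmt3a (-0.16 to 0.18) and Ezh1 (-0.16 to 0.47). Between regions it did for Tet2 (-0.24 to 0.032) and Tet3 (-0.41 to 0.18). The cause was not tested. Tet3 in whole sections and Ezh2 in epithelium-rich spots kept their direction in every alternative run. When a section was left out, so did Dnmt1, Dnmt3a, Dnmt3b, Tet2 and Ezh2 in whole sections. In epithelium-rich spots Dnmt1, Dnmt3a, Tet2 and Tet3 then did too. Few UMIs a section limit Dnmt3b, Uhrf1 and Tet1 in spots.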
